A study of Mus musculus with 10 samples.

Results

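Heavy chain V segments were followed across mouse B cells with and without the RNA-binding protein Pcbp1. They were taken as the rows named Ighv with 10 or more counts in at least 2 of 10 libraries, which gave 119 of 183 Ighv rows in a table of 55492 gene symbols. The series profiled poly(A) transcripts by RNA-seq in naive splenic B cells on day 0 (2 WT and 2 KO libraries) and in induced germinal center B cells, iGCB, on day 4 (3 WT and 3 KO). For iGCB cells, naive B cells are cultured on 40-LB cells, a fibroblast feeder line made to express BAFF and the ligand of CD40. KO mice carried floxed Pcbp1 (fl/fl) and Mb1-Cre, which acts in the B lineage from its early stages. The labels do not say whether WT mice carried Cre, nor give strain, age or sex, nor tie libraries to animals. The p-values therefore measure the spread between these libraries, which may be technical.

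A heavy chain variable domain is built from 1 V, 1 D and 1 J segment joined by RAG-mediated recombination during B cell development in the bone marrow, and the joined exon is transcribed together with a constant gene. Each mature B cell therefore makes its heavy chain mRNA mostly from a single V segment, and the V segment counts of a population reflect both which segments its cells carry and how much heavy chain mRNA they make. Cells that turn toward antibody secretion raise this mRNA strongly, under factors such as Blimp-1 (Prdm1) and Xbp1.

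All 183 Ighv rows matched the GENCODE M21 annotation of the mm10 build by symbol. The 119 segments lay on the minus strand of chromosome 12 within chr12:113572927-116000461, with the segments nearest the D segments at the low coordinates. GENCODE annotated 104 of them as V genes and 15 as V pseudogenes, and they fell into 15 V families. Segments are alike: the last 250 bases of a segment's transcript had a median identity of 94.8%, by edit distance, to those of the nearest other segment. Among the 50-base stretches of a segment's longest transcript, a median of 79.2% occurred in no other Ighv segment, with a range from 2.6% to 100%, so that part of the counts can be split between neighbours in sequence.

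The segments on which the results turn are shown as GENCODE M21 gives them, 5′ to 3′, from the codon of the conserved tryptophan after the first complementarity-determining region to the bases after the codon of the conserved second cysteine. Both codons are in capitals. The first 3 were among the most abundant segments, Ighv2-2 held a larger share of the heavy chain pool in KO cells at both stages and Ighv5-4 in iGCB KO cells, and the last 4 had a smaller share in KO cells at both stages.
Ighv3-6: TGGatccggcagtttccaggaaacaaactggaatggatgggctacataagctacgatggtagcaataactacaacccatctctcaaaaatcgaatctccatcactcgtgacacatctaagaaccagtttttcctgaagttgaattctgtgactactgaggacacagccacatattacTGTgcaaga
Ighv1-26: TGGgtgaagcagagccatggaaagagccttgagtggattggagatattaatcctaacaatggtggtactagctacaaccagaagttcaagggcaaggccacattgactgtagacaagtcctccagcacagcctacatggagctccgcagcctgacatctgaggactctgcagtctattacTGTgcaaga
Ighv9-3: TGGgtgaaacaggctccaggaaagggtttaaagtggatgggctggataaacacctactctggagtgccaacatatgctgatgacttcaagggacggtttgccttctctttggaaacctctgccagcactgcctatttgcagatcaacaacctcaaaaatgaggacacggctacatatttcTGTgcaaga
Ighv2-2: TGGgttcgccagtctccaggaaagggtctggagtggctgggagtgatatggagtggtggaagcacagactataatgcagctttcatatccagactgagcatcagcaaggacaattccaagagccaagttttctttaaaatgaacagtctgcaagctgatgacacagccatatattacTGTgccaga
Ighv5-4: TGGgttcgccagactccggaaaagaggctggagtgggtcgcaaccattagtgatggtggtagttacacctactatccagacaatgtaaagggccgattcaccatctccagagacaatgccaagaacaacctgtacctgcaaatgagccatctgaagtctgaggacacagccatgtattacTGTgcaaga
Ighv1-80: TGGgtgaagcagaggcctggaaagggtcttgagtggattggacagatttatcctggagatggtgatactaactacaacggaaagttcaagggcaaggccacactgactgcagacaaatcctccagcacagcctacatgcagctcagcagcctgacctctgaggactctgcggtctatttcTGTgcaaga
Ighv1-47: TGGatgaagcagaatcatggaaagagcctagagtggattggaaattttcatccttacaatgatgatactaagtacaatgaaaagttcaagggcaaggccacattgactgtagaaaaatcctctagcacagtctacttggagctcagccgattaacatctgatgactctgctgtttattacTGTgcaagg
Ighv15-2: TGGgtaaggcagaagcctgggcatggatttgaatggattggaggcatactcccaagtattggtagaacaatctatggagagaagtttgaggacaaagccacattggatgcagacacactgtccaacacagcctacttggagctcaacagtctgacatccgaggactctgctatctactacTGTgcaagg
Ighv11-2: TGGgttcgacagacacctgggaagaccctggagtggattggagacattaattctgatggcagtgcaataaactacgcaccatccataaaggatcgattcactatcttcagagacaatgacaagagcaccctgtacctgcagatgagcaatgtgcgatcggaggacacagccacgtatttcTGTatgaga
Ighv3-6 lies at chr12:114288152-114288582, Ighv1-26 at chr12:114788372-114788805, Ighv9-3 at chr12:114140692-114141122, Ighv2-2 at chr12:113588267-113588702 and Ighv5-4 at chr12:113597446-113597977. Ighv1-80 lies at chr12:115912344-115912776, Ighv1-47 at chr12:114991108-114991580, Ighv15-2 at chr12:114564578-114565012 and Ighv11-2 at chr12:114048241-114048812. Each is a V gene on the minus strand. Ighv11-2 is 99.2% identical to Ighv11-1 over the last 250 bases and 61.4% of its 50-base stretches are its own, whereas all of the 50-base stretches of Ighv1-47 and of Ighv15-2 are their own. For Ighv2-2 the share is 44.6%, with Ighv2-4 as its nearest segment at 97.6%.

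Pcbp1 itself was at 153 and 83.9 CPM (the count scaled by TMM-adjusted library size, on the usual CPM scale) in naive WT against 4.33 and 0.45 in naive KO, and at 148 to 327 CPM in iGCB WT against 1.96 to 3.71 in iGCB KO, so that it was low in all 5 libraries labelled KO. Libraries held 33400672 to 63576147 counts, of which 15281 to 174806 fell on the 119 segments. Xist and Y-linked genes marked naive WT 1 and naive KO 1 as female and the other 8 libraries as male. Mb1-Cre is an insertion in Cd79a, a chain of the B cell receptor, and Cd79a was at 432 and 414 CPM in naive KO against 1387 and 1173 CPM in naive WT. An effect of Mb1-Cre therefore cannot be told apart from loss of Pcbp1. In bulk RNA, fewer cells with a segment and less RNA per cell cannot be told apart either.

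Heavy chain V segments made up a far smaller part of the transcriptome in KO than in WT iGCB cells. Their summed counts were 0.191%, 0.150% and 0.243% of all counts in iGCB WT, against 0.0566%, 0.0455% and 0.0552% in iGCB KO. The groups did not overlap, and the mean was 3.71 times higher in WT (0.195% ± 0.0466 against 0.0524% ± 0.00601, SD, n = 3 each). In naive cells the sum was 0.250% and 0.133% in WT and 0.296% and 0.209% in KO, which overlapped. Within each sex the naive KO library was the higher one, by 1.18 times in the female pair and 1.57 times in the male pair. WT cells had nearly the same mean before and after culture (0.192% and 0.195%), with overlapping libraries, although against the single male naive WT library the 3 male iGCB WT libraries were all higher, 1.46 times on average. In KO cells the mean was 4.82 times lower in iGCB than in naive cells and the groups did not overlap. Against the single male naive KO library, the ratio of iGCB KO to naive KO was 0.25.

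**Figure D1:**
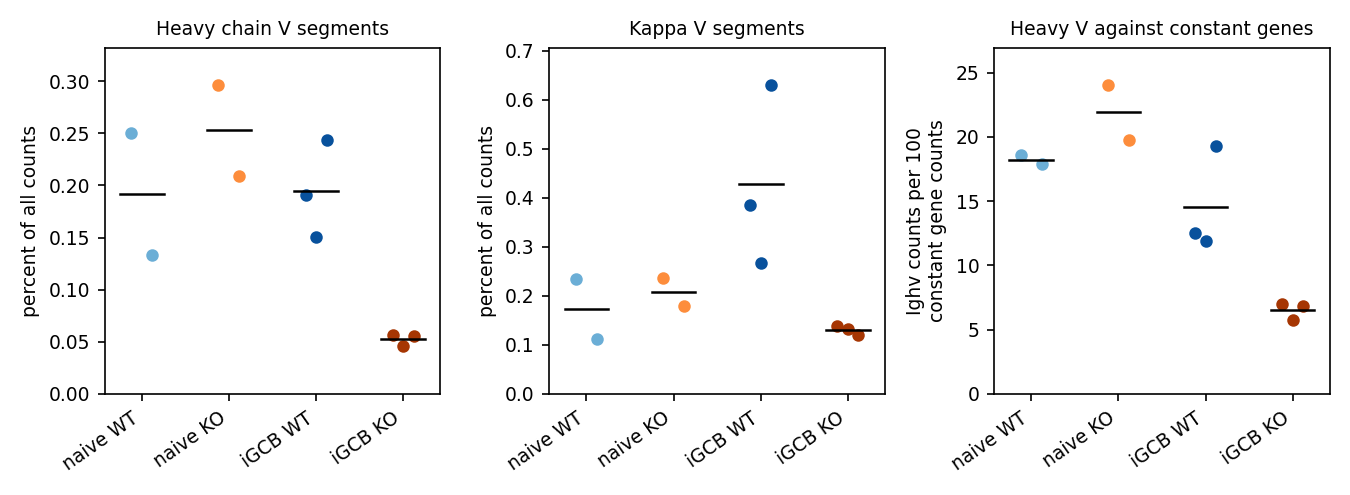
Each point is a library and each line a group mean: heavy chain V segments and kappa V segments as percent of all counts, and heavy chain V counts per 100 counts of the 8 heavy chain constant genes. iGCB KO libraries lie at 0.0455% to 0.0566% for heavy chain V segments, below the 0.150% to 0.243% of iGCB WT.

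Segment by segment, the lower level in iGCB KO was broad. Of the 118 segments that passed the filter on low counts, 62 (52.5%) were lower in KO than in WT iGCB cells and 0 were higher (edgeR quasi-likelihood test, Benjamini-Hochberg adjustment over all 21010 genes tested at 0.05). Over all genes, 0.923% were called lower and 0.343% higher in this comparison. The median log2 fold change of the 118 was -1.96, against 0 over all genes. All 99 segments with an unadjusted p under 0.05 were lower, 115 had a fold change below 0, and DESeq2 called 91 lower and 0 higher. The 3 KO libraries lay below the 3 WT libraries for 104 of the 118 segments, against 10.3% of all genes. The 62 called ranged from -3.04 to -1.37.

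The count of calls depended on single libraries, while its direction did not. It was 18, 9 and 8 without iGCB KO 1, 2 or 3, and 36 and 21 without iGCB WT 1 or 3, all lower. The calls came from well-measured segments: with segments ranked by mean level into 3 sets, 33 of 40 in the highest set were lower, 25 of 39 in the middle set and 4 of 39 in the lowest set, whereas their median fold changes were -1.97, -1.83 and -1.97. Of 14 tested pseudogenes, 1 was lower, with a median of -2.05, and of 104 V genes 61 were lower, with a median of -1.93.

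**Figure D2:**
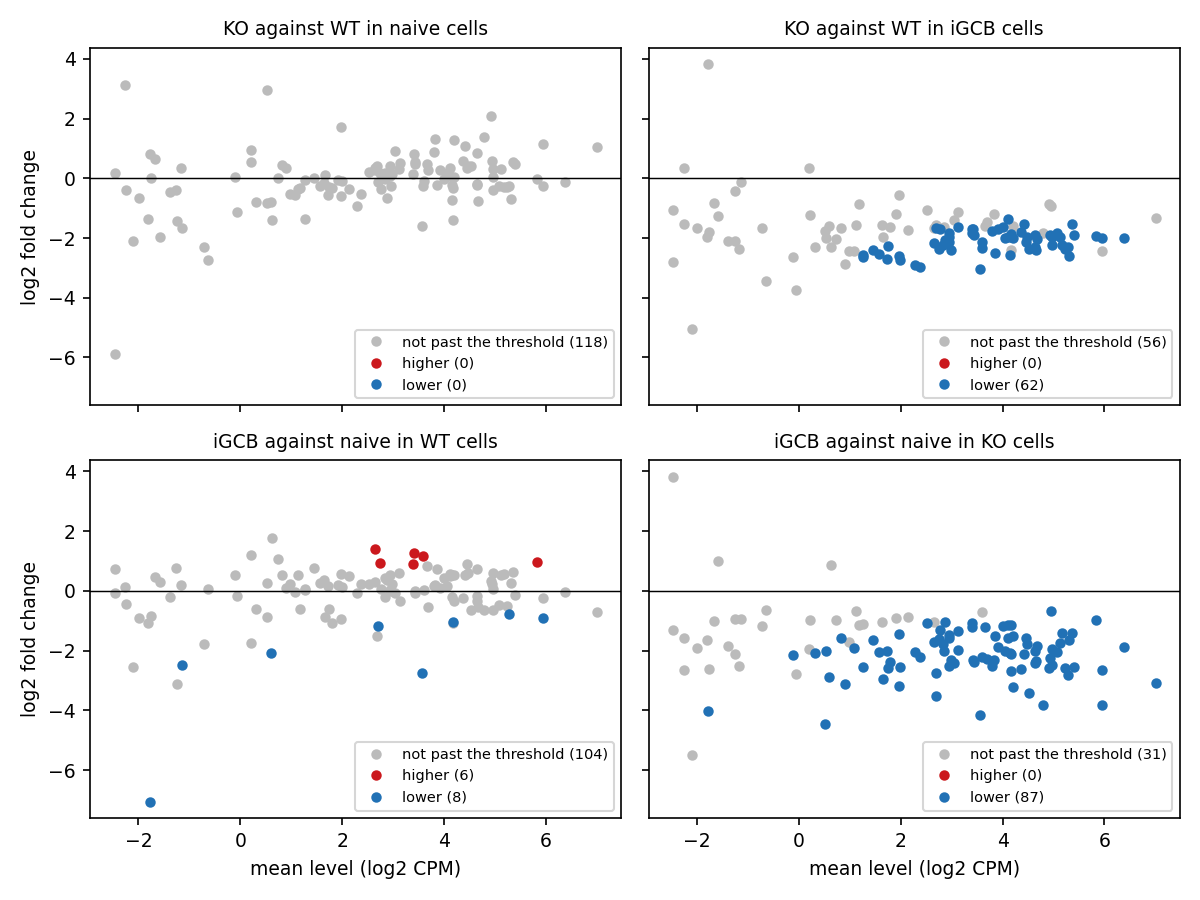
Each point is 1 of 118 heavy chain V segments, with its mean level in log2 CPM on the horizontal axis and its log2 fold change on the vertical axis in 4 comparisons, coloured by the edgeR call at an adjusted p of 0.05. The cloud lies around 0 in naive cells and in the stage comparison of WT cells, and near -2 in both comparisons that involve iGCB KO.

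The most abundant segments show the size of the difference. Ighv1-26 was at 99.4, 82.8 and 145 CPM in iGCB WT and at 30.04, 25.2 and 26.8 CPM in iGCB KO, a log2 fold change of -1.99 (SE 0.29, edgeR adjusted p = 0.00949). Ighv9-3 was at 102, 73.3 and 117 CPM against 27.1, 22.7 and 25.9 CPM, a log2 fold change of -1.95 (SE 0.30, edgeR adjusted p = 0.0107). Every KO library was below every WT library for both segments. Ighv3-6 was at 82.0, 67.7 and 119 CPM against 38.0, 31.5 and 38.7 CPM. Its groups did not overlap either, but its log2 fold change of -1.31 (SE 0.34) was smaller and did not pass (edgeR adjusted p = 0.118). Ighv5-4, at 39.6, 34.5 and 48.3 CPM against 20.8, 20.4 and 22.9 CPM, had a log2 fold change of -0.93 (SE 0.22, edgeR adjusted p = 0.0846), and Ighv2-2, at 25.6, 19.6 and 24.7 CPM against 13.2, 10.8 and 14.8 CPM, one of -0.85 (SE 0.29, edgeR adjusted p = 0.298). These 3 abundant segments lay below WT in every KO library, by less than the median of the 118.

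The largest decreases past the threshold were in Ighv11-2, Ighv1-47, Ighv15-2, Ighv1-63, Ighv1-71 and Ighv1-67. Ighv11-2, a segment known from B-1a cells that bind phosphatidylcholine, was at 4.61, 4.99 and 7.03 CPM in iGCB WT and at 1.14, 0.40 and 0.47 CPM in iGCB KO, a log2 fold change of -3.04 (SE 0.59, edgeR adjusted p = 0.0318). Ighv1-47 was at 5.61, 5.82 and 13.1 CPM against 0.91, 1.16 and 1.06 CPM (-2.97, SE 0.41, edgeR adjusted p = 0.00773). Ighv15-2 was at 6.48, 5.52 and 9.87 CPM against 1.08, 0.98 and 0.82 CPM (-2.92, SE 0.40, edgeR adjusted p = 0.00677). For all 3, every KO library lay below the lowest WT library, and the KO libraries of Ighv11-2 spread widely among themselves (0.670 ± 0.409 CPM, SD, n = 3). Ighv1-63, Ighv1-71 and Ighv1-67 had log2 fold changes of -2.75, -2.71 and -2.63. Ighv1-71 shares nearly all of its sequence with Ighv1-62-2, with 2.6% of its 50-base stretches its own, so its value is uncertain. Among the well-expressed segments Ighv1-9 (-2.61, SE 0.34, edgeR adjusted p = 0.00575) and Ighv1-80 (-2.31, SE 0.28, edgeR adjusted p = 0.00392) stood at the lower end. Ighv1-80 went from 44.5, 31.3 and 41.7 CPM in WT to 9.24, 5.97 and 8.41 CPM in KO.

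By V family, 37 of 59 tested V1 segments were lower in iGCB KO, as were 4 of 4 V14, 2 of 2 V10, 2 of 3 V7, 2 of 4 V6, 3 of 8 V8 and 4 of 11 V5 segments. In V2 2 of 9 were lower, in V3 1 of 7, in V9 1 of 4, in V4 and V11 1 of 2 each, in V13 and V15 1 of 1 each, and in V12 0 of 1. Whether families differ in this share was not tested. The 3 segments with a fold change above 0, Ighv2-7, Ighv1-21-1 and Ighv1-43, had low counts and overlapping groups, and are named after their values were seen. Summed over the family, V1 was at 796 to 1302 CPM in iGCB WT and at 217 to 265 CPM in iGCB KO. Every 1 of the other 14 families also had lower sums in all 3 KO libraries than in all 3 WT libraries. The log2 ratio of mean sums was -2.05 for V1, -1.44 for V2, -1.32 for V3, -1.55 for V5 and -2.81 for V11.

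In naive cells no segment separated KO from WT past the threshold. edgeR called 0 higher and 0 lower of 118, against 0.0143% and 0.0333% of all genes, with 9 higher and 5 lower at an unadjusted p under 0.05, against 1166 of all 21010 genes in either direction. DESeq2 called 1 higher, Ighv2-2. The median log2 fold change was -0.018, against -0.048 over all genes. The 2 KO libraries lay above the 2 WT libraries for 15 segments and below them for 15, against 11.5% and 12.7% of all genes, so these non-overlap counts are near the background.

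Ighv2-2 stood at the edge of the call in naive cells. It was at 22.6 and 14.2 CPM in naive WT and at 108 and 48.1 CPM in naive KO, so that both KO libraries were above both WT libraries. The log2 fold change was 2.08 (SE 0.36) with an edgeR adjusted p of 0.13, and a term for sex gave 2.01 with an adjusted p of 0.00361. Without naive KO 2 it was 2.55 (adjusted p = 0.00862), and without naive KO 1 it was 1.37 (adjusted p = 0.285). Ighv11-2 differed most between the naive WT libraries, at 61.7 CPM in naive WT 1 and 12.2 CPM in naive WT 2, and was at 13.6 and 10.8 CPM in naive KO. Its log2 fold change of -1.60 (SE 0.63, edgeR adjusted p = 0.801) became -0.006 without naive WT 1.

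During culture of WT cells the heavy chain V segments hardly moved as a whole, while the transcriptome changed widely. Of 118 segments, 6 were higher and 8 lower in iGCB WT than in naive WT (edgeR), against 24.7% and 31.7% of all genes, with a median log2 fold change of 0.08. The libraries did not overlap for 15 segments on the higher and 13 on the lower side, against 32.2% and 40.2% of all genes. The 6 that rose were Ighv2-5 (1.40), Ighv1-5 (1.27), Ighv1-76 (1.18), Ighv9-3 (0.96), Ighv14-1 (0.93) and Ighv5-9-1 (0.91). Ighv1-76 was at 12.9 and 7.06 CPM in naive WT and at 22.9, 18.4 and 26.6 CPM in iGCB WT (SE 0.31, edgeR adjusted p = 0.00756), with all iGCB libraries above both naive ones.

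The 8 that fell included Ighv11-2 (-2.74, SE 0.57, edgeR adjusted p = 0.00223), Ighv6-5 (-2.09), Ighv7-1 (-1.19), Ighv4-1 (-1.05), Ighv6-3 (-0.92) and Ighv1-80 (-0.78). The remaining 2 were Ighv1-70 and Ighv2-7, which had low counts, the latter with 0 in all 3 iGCB WT libraries, and are named after their values were seen. Ighv11-2 also depended on naive WT 1, without which its log2 fold change was -1.13 and did not pass (edgeR adjusted p = 0.0758). These counts moved with single libraries: 23 higher and 2 lower without naive WT 1, 0 and 18 without naive WT 2, 3 and 5 without iGCB WT 1, 8 and 4 without iGCB WT 2, and 1 and 11 without iGCB WT 3. The 2 naive WT libraries differed in sex and in the Ighv share of counts, and all iGCB libraries were male.

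In KO cells most segments fell over the same step of culture. Of 118, 87 (73.7%) were lower and 0 higher in iGCB KO than in naive KO (edgeR), against 31.4% and 24.8% of all genes, with a median log2 fold change of -1.98, against -0.26 over all genes. DESeq2 called 96 lower and 0 higher, and 0 segments were higher at an unadjusted p under 0.05. The groups did not overlap for 105 segments on the lower side, against 41.3% of all genes. Ighv3-6 was at 426 and 186 CPM in naive KO and at 38.0, 31.5 and 38.7 CPM in iGCB KO, a log2 fold change of -3.09 (SE 0.38, edgeR adjusted p = 7.95e-05). Among the segments past the threshold with separated groups and a mean log2 CPM of at least 0, the decreases largest in size were in Ighv8-6 (-4.46), Ighv11-2 (-4.17), Ighv1-78 (-3.83), Ighv1-82 (-3.81), Ighv12-3 (-3.51) and Ighv7-3 (-3.42). Ighv12-3, like Ighv11-2, is known from B-1a cells. Ighv8-6, Ighv1-78 and Ighv1-82 were high in naive KO 1 alone, and without it their log2 fold changes were -1.53, -2.05 and -1.58, the first of which then did not pass (edgeR adjusted p = 0.306).

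This comparison shares the iGCB KO libraries with the comparison of KO and WT iGCB cells, so their calls are not independent. The test of the difference between the KO effects at the 2 stages, which uses all 4 groups, called 0 segments higher and 0 lower (edgeR), against 0.0143% and 0.019% of all genes. The median difference was -1.99 with 112 of 118 below 0, and 82 were lower and 0 higher at an unadjusted p under 0.05, against 1273 of all 21010 genes in either direction. DESeq2 called 57 lower, edgeR with a replicate block, which in naive cells coincides with sex, called 28 lower, and the count was 29 without naive WT 1 and 4 without naive KO 2. The smallest adjusted p was that of Ighv2-2 (difference -2.93, SE 0.46, edgeR adjusted p = 0.0865), followed by Ighv14-2 (-2.76, SE 0.45, edgeR adjusted p = 0.0937).

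**Figure D3:**
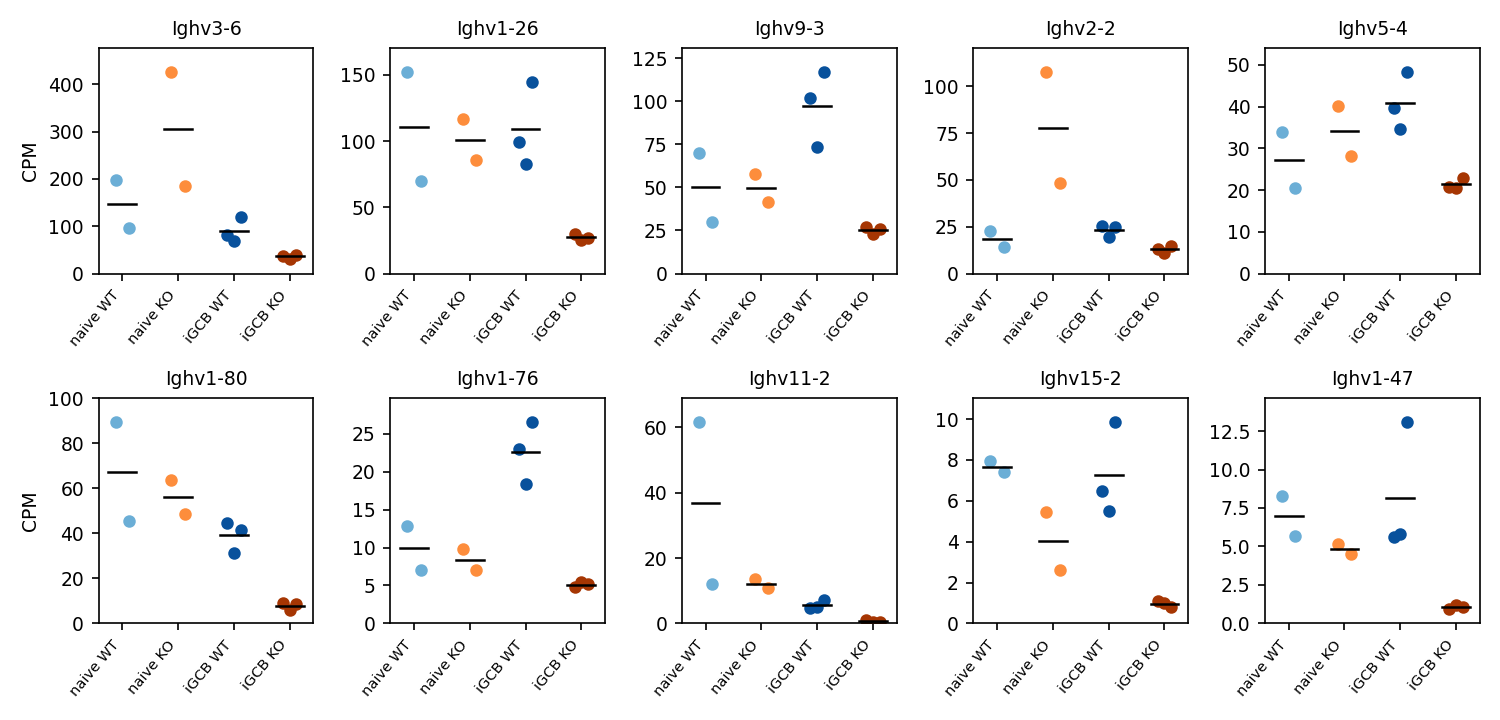
TMM-scaled CPM of 10 heavy chain V segments in each library (points) with the group mean (line). In every panel the 3 iGCB KO libraries lie below the 3 iGCB WT libraries; Ighv2-2 and Ighv3-6 have their highest library in naive KO.

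Read against each other rather than against all genes, the segments differed in how much of the heavy chain pool they held. V1, the largest family with 60 segments, held 52.1% and 51.1% of Ighv counts in naive WT libraries, against 47.6% and 44.2% in naive KO. In iGCB cells it held 51.6%, 52.2% and 51.9% in WT and 46.8%, 46.4% and 46.4% in KO. V1 was thus lower in every KO library than in every WT library at both stages. The stages share no library, but the labels do not say whether they share animals. Strain is not given either, so WT and KO mice cannot be assumed to carry the same heavy chain locus alleles. V2 held 4.09% and 3.61% against 7.91% and 6.90% in naive cells, and 4.49%, 4.72% and 3.93% against 6.002%, 5.77% and 5.96% in iGCB cells. V3 held 9.01% and 9.13% against 17.7% and 11.8% in naive cells, and 6.10%, 6.14% and 6.58% against 8.89%, 9.45% and 9.89% in iGCB cells. V2 and V3 were thus higher in every KO library at both stages. Family shares sum to 100%, so they are not independent of each other, and they are a description with no test.

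V3 was dominated by Ighv3-6, but its higher share did not rest on that segment: with Ighv3-6 left out of every library, the log2 ratio of KO to WT shares was 0.54 in naive and 0.61 in iGCB cells, against 0.70 and 0.58 with it. V5 was higher in KO in iGCB cells only in the sense that its groups separated there (9.68%, 10.2% and 9.27% against 11.6%, 12.9% and 12.5%) and overlapped in naive cells (7.41% and 7.76% against 7.36% and 8.51%). V11 went the other way, at 2.31% and 0.949% against 0.479% and 0.562% in naive cells, and at 0.273%, 0.356% and 0.299% against 0.222%, 0.144% and 0.117% in iGCB cells. V15, with Ighv15-2 as its single segment, was also lower in KO at both stages, at 0.295% and 0.557% against 0.191% and 0.134%, and at 0.348%, 0.362% and 0.394% against 0.191%, 0.209% and 0.149%.

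**Figure D4:**
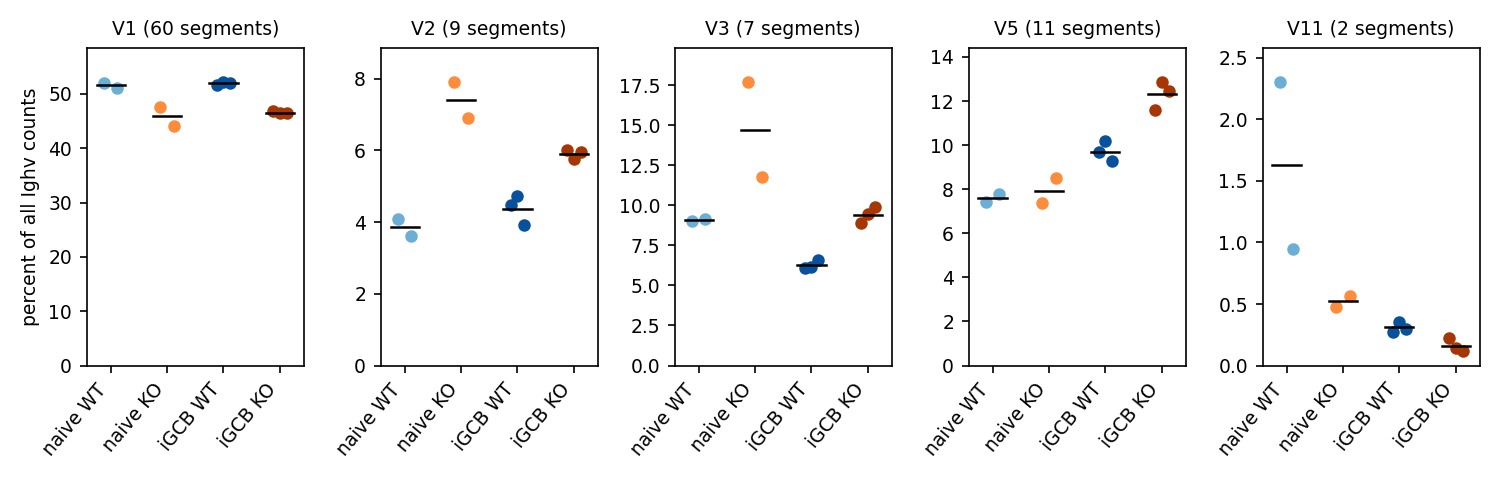
Share of all Ighv counts held by 5 V families in each library (points) with the group mean (line). V1 and V11 are lower and V2 and V3 higher in all KO than in all WT libraries of the same stage, while V5 separates in iGCB cells and overlaps in naive cells.

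The families also differed between naive and iGCB cells. V9 held 3.16% to 4.12% in naive cells and 6.34% to 7.26% in iGCB cells, V8 held 2.75% to 3.70% and 3.72% to 5.37%, V14 held 2.91% to 3.81% and 4.12% to 4.86%, and V5 held 7.36% to 8.51% and 9.27% to 12.9%. All 6 iGCB libraries were above all 4 naive libraries for these 4 families. V11 was lower in all iGCB than in all naive libraries, and V7 too, at 2.00% to 2.99% in naive and 1.05% to 1.72% in iGCB cells.

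The KO to WT ratio of a segment's share was set side by side for both stages. Of 83 segments above 0.1% of Ighv counts in each of the 4 groups, 59 had a KO to WT share ratio on the same side of 1 in naive and iGCB cells, and the log2 ratios correlated across segments (Spearman 0.527, Pearson 0.561, given as a description, since shares sum to 100% and similar segments share reads). Separate libraries made the 2 sets of ratios, but the labels do not say whether the stages share animals. Without naive KO 1, 54 of 82 were on the same side and the Spearman value was 0.448. Kappa V segments, treated in the same way as shares of the kappa V pool, gave 51 of 74 on the same side and a Spearman value of 0.604.

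At both stages 6 heavy chain segments were higher in share in all KO libraries, 15 were lower in all of them, and 1 changed sides. As background, 39.8% of the 83 segments had separated groups in iGCB and 50.6% in naive cells, and the kappa V counts were 5 higher, 8 lower and 0 that changed sides. Without naive KO 1 the heavy chain counts were 6, 16 and 4. With all libraries, the 6 higher segments were Ighv2-2, Ighv3-6, Ighv3-8, Ighv5-6, Ighv5-12 and Ighv1-18. Ighv2-2 held 0.840% and 1.06% of Ighv counts in naive WT against 3.78% and 2.48% in naive KO, and 1.38%, 1.29% and 0.986% in iGCB WT against 2.34%, 2.3035% and 2.68% in iGCB KO. Among the 15, Ighv1-9 held 2.61% and 2.74% against 1.39% and 1.32% in naive cells, and 2.75%, 3.11% and 3.70% against 1.92%, 1.68% and 2.29% in iGCB cells. Ighv1-80, Ighv1-47, Ighv15-2 and Ighv11-2 were also among them. Except for Ighv2-2, Ighv3-6, Ighv1-18, Ighv1-9, Ighv1-80, Ighv1-47, Ighv15-2 and Ighv11-2, these segments are named after their values were seen.

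Composition was also read by scaling each library by its summed Ighv counts in place of all counts. This scaling shifted the median log2 fold change of all genes in iGCB KO against WT from 0 to 1.815. A segment at 0 thus moved with the heavy chain pool and not with the transcriptome. Since p-values are adjusted over all genes, calls under this scaling are not comparable with those of the main fit. With it, edgeR called 0 segments lower and 4 higher in iGCB KO against WT. They were Ighv5-4 (log2 fold change 0.95, edgeR adjusted p = 0.00975), Ighv2-2 (1.004, edgeR adjusted p = 0.0114), and Ighv1-43 and Ighv2-7, which have few counts. As a share of Ighv counts, a description with no test, Ighv5-4 held 1.93% to 2.26% in iGCB WT and 3.67% to 4.36% in iGCB KO. Relative to the rest of the heavy chain pool, then, the 2 segments with many counts, Ighv5-4 and Ighv2-2, were higher in iGCB KO. For Ighv2-2 only 44.6% of the 50-base stretches are its own, so its value may be shared with Ighv2-4. The levels of both segments on the CPM scale were lower in every iGCB KO library.

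Position on the chromosome moved with these shares. With the locus divided into 3 parts of equal length by segment start, a division chosen after the data were seen, the 45 segments nearest the D segments held 34.4% and 34.2% of Ighv counts in naive WT, against 43.8% and 40.8% in naive KO. In iGCB cells they held 35.7%, 35.5% and 33.8% in WT and 41.6%, 42.8% and 42.1% in KO. The proximal part was thus larger in every KO library at both stages. The 42 middle segments were smaller in KO at both stages (37.1% and 39.6% against 25.4% and 34.6%, and 34.9%, 36.8% and 38.2% against 34.4%, 33.5% and 33.2%), and the 32 distal segments were smaller in KO iGCB cells (29.4%, 27.7% and 28.0% against 24.0%, 23.7% and 24.7%) and overlapped in naive cells. All V2, V3 and V5 segments lie in the proximal part and all V1 segments but 1 outside it, so family and position were not separated. Strain is not given, and a difference in locus alleles between WT and KO mice was not tested.

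The share of segments called lower in iGCB KO followed the same order, with 17 of 44 tested proximal, 24 of 42 middle and 21 of 32 distal segments and median log2 fold changes of -1.63, -1.999 and -2.13. Across the 118 segments, the coordinate of the start and the log2 fold change had a Spearman correlation of -0.419 in iGCB cells and -0.279 in naive cells, and of 0.016 and 0.044 in the stage comparisons of WT and KO cells. These values are descriptions, since neighbouring segments share sequence and reads. With the most abundant segment of each part left out, the proximal part was still larger in every KO library at both stages (40.5% to 42.1% against 33.5% to 35.8% in iGCB cells, and 37.0% and 40.1% against 32.4% and 31.8% in naive cells).

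**Figure D5:**
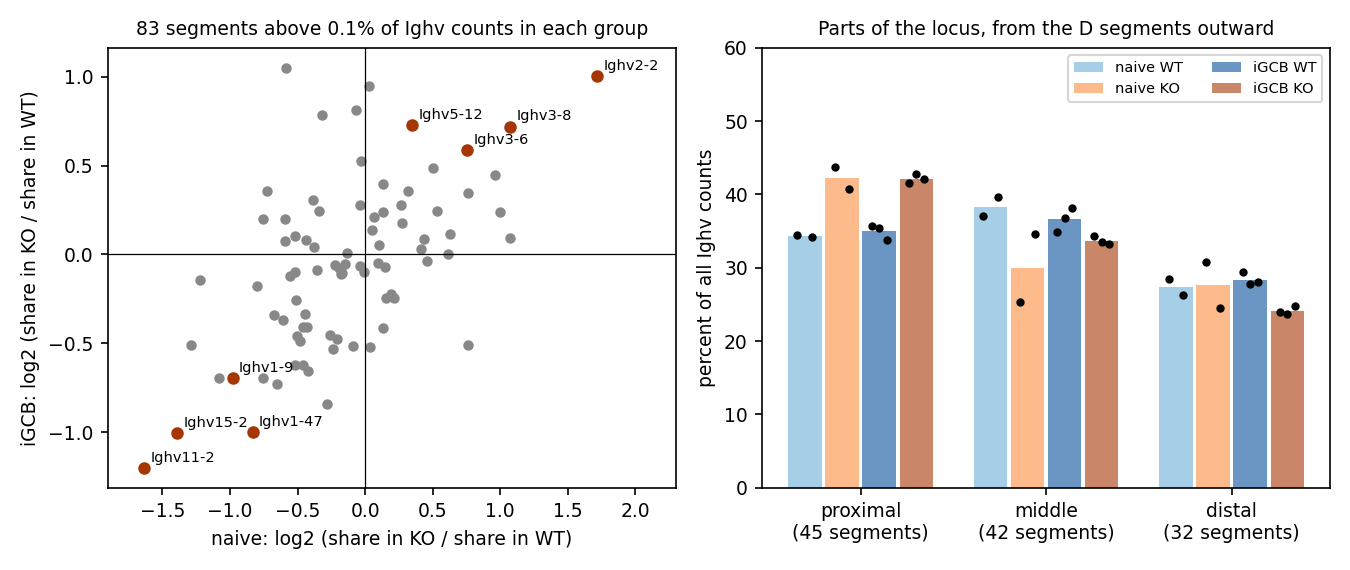
Left, log2 ratio of a segment's share of Ighv counts in KO to that in WT, in naive (horizontal) and iGCB cells (vertical), for 83 segments, with 8 labelled. Right, share of Ighv counts held by 3 parts of the heavy chain V locus in each library (points; bars are group means), where the proximal part reaches 40.8% to 43.8% in KO and 33.8% to 35.7% in WT libraries.

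How evenly the segments were used was measured as the effective number of segments, the exponential of the Shannon entropy of their shares, which would be 119 if all were equal. Naive WT libraries had 58.9 and 58.2, naive KO libraries 45.3 and 56.8. Among iGCB libraries, WT had 63.4, 63.9 and 63.3, and KO 61.5, 61.3 and 60.3. KO libraries were below WT libraries at both stages, by little except in naive KO 1. Without the top segment of each library this order held in iGCB cells but not in naive cells, where naive KO had 54.0 and 61.5 and naive WT 61.3 and 60.5. In naive KO 1, Ighv3-6 held 15.0%, Ighv1-82 9.07% and Ighv1-78 4.44% of Ighv counts, against 9.60%, 1.60% and 1.1215% in naive KO 2. Naive KO 1 also had the most Ighg2b transcript of the naive libraries, at 1222 CPM against 96.4 to 431 CPM, and its part in these shares was not tested. Ighv3-6 was the top segment in all 5 KO libraries, with 6.71% to 15.0%. In WT the top segment was Ighv3-6, Ighv6-3, Ighv9-3 or Ighv1-26, with 5.43% to 7.33%.

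Per kilobase of annotated exon, which allows segments to be compared with each other, Ighv3-6 had the highest mean in naive WT (419 CPM per kb), ahead of Ighv1-26 (316) and Ighv6-3 (307), whose libraries overlapped. In iGCB WT Ighv1-26 (310 CPM per kb), Ighv9-3 (277) and Ighv3-6 (256) led and also overlapped, and in iGCB KO the order was Ighv3-6 (103 CPM per kb), Ighv1-26 (77.9) and Ighv9-3 (71.9). There the libraries of Ighv3-6 lay above those of the other two, which overlapped each other.

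The other parts of the antibody transcript were mixed. The 8 heavy chain constant genes together made up 1.26% to 1.52% of all counts in iGCB WT against 0.796% to 0.804% in iGCB KO, a mean 1.68 times higher in WT with no overlap. Of these genes, 1 passed in KO against WT iGCB cells. Ighd, the constant gene of IgD, was higher, with WT libraries at 16.1, 15.5 and 23.9 CPM and KO libraries at 204, 263 and 351 CPM (a log2 fold change of 3.88, SE 0.27, edgeR adjusted p = 0.000199). Ighm was at 2805, 1817 and 2603 CPM in iGCB WT and at 3193, 3493 and 3403 CPM in iGCB KO (0.48, SE 0.26, edgeR adjusted p = 0.619), and Ighg1 was at 2272 to 2787 CPM and 2841 to 2901 CPM. Ighe, named after its values were seen, was at 9183, 8703 and 8097 CPM in iGCB WT and at 1750, 1492 and 1392 CPM in iGCB KO, a log2 fold change of -2.49 (SE 0.55, edgeR adjusted p = 0.059). The KO libraries were thus above the WT libraries for Ighd, Ighm and Ighg1 and below them for Ighe. The lower constant gene sum in iGCB KO therefore rested on Ighe, which did not pass. Of the 8 genes, 3 had a log2 fold change below 0, and the median was 0.36.

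Per 100 counts of constant genes, iGCB WT libraries had 12.6, 11.9 and 19.3 Ighv counts, and iGCB KO libraries 7.04, 5.72 and 6.87. Naive WT libraries had 18.6 and 17.9 of them and naive KO libraries 24.0 and 19.8. The ratio was lower in every iGCB KO library than in every iGCB WT library, and higher in both naive KO than in both naive WT libraries. Its denominator differed in make-up. Ighe was at 8097 to 9183 CPM of the 12831 to 14812 CPM of constant genes in iGCB WT. In iGCB KO it was at 1392 to 1750 of 8022 to 8181 CPM. The ratio is thus not a measure of V segments per heavy chain transcript.

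Light chain V segments were lower in iGCB KO too. Of 115 tested kappa V segments 31 were lower and 0 higher, with a median of -1.69, and of 3 lambda V segments 2 were lower and 0 higher, with a median of -1.92. Over all genes, 0.923% were called lower and 0.343% higher. Kappa V segments held 0.267% to 0.631% of all counts in iGCB WT and 0.121% to 0.139% in iGCB KO. They differed from heavy chain V segments in WT culture, where 59 of 115 rose, 2 fell, and the median was 1.27. Over all genes, 24.7% were called higher and 31.7% lower in that comparison. Ighv counts per 100 kappa V counts were 107 and 118 in naive WT and 49.6, 56.1 and 38.5 in iGCB WT, a description with no test. D and J segments had 0 of 12 called, with a median of -0.85 in KO against WT iGCB cells.

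Genes of antibody secretion were lower in the same libraries. Of 20 immunoglobulin secretion and plasma cell genes, 8 were lower and 0 higher in KO against WT iGCB cells, against 0.923% and 0.343% of all genes. Of the 20, 19 had a fold change below 0, and the median on the log2 scale was -1.11. Of the 8, those with the largest fold changes were Bhlha15 (-3.55), a transcription factor of secretory cells, Jchain (-3.27), the joining chain of polymeric antibodies, Prdm1 (-2.28) and Creld2 (-1.79), a chaperone of the endoplasmic reticulum. Jchain was at 257, 178 and 350 CPM in iGCB WT and at 22.5, 31.1 and 28.1 CPM in iGCB KO, so the groups were far apart. Of 14 genes of heavy chain transcription and rearrangement, 0 were called in either direction, with a median of -0.04.

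Summed plasma cell markers were at 2041 to 2222 CPM in iGCB WT and at 1012 to 1127 CPM in iGCB KO, with 3 of 7 lower, and at 1088 to 1489 CPM in naive cells. All 7 are among the secretion genes above, so they are not a separate set. Xbp1 was the largest part of the sum, at 1097 to 1254 CPM in iGCB WT and 565 to 654 CPM in iGCB KO. Summed B cell markers were at 5353 to 6020 CPM and 6645 to 6836 CPM, with 1 of 8, Cd79a, lower, and summed germinal center markers at 1007 to 1224 CPM and 968 to 1102 CPM, with 0 of 6 called. T cell markers summed to 23.8 to 33.6 CPM and 66.4 to 73.3 CPM. Lck, which was called higher, held most of this at 16.9 to 23.8 CPM and 60.5 to 67.9 CPM, while 6 of the 8 had a fold change below 0. Fibroblast markers, the feeder type, summed to 356 to 450 CPM and 321 to 374 CPM. Of this, Thy1 held 286 to 413 CPM and 257 to 321 CPM, and Col1a1 13.1 to 29.5 CPM and 13.7 to 20.7 CPM. Neither sum is thus a measure of its cell type. Myeloid markers summed to 23.5 to 39.8 CPM and 38.1 to 78.3 CPM. In naive cells they summed to 254.5 and 212 CPM in WT and to 336 and 46.2 CPM in KO. Erythroid and platelet markers in naive cells summed to 92.9 and 129 CPM in WT and to 218 and 26.5 CPM in KO. Naive libraries thus differed in these markers, and the bearing on Ighv values was not tested. In iGCB KO against WT, plasma cell markers were thus lower along with the V segments. In WT culture the marker sum rose from 1088 and 1359.5 CPM to 2041 to 2222 CPM. Of the 7 markers, 3 were called higher and 2 lower, against 24.7% and 31.7% of all genes. Xbp1 made up most of this rise, from 133 and 85.3 CPM to 1097 to 1254 CPM. The mean Ighv share in WT cells was 0.192% before and 0.195% after culture. In KO culture the marker sum and the Ighv share both fell, the marker sum from 1315 and 1489 CPM to 1012 to 1127 CPM. Here 2 of 7 markers were called higher and 3 lower, against 24.8% and 31.4% of all genes. Xbp1 rose from 138 and 112 CPM in naive KO to 565 to 654 CPM in iGCB KO. Irf4 fell from 853 and 960 CPM to 362 to 380 CPM in the same groups. The sums thus do not stand for each marker. The part of plasma cell genes in the lower Ighv counts was not tested.

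The count rule that chose the segments had little bearing on these values, since the 119 held at least 99.86% of the Ighv counts of every library. Just inside it were Ighv1-1, Ighv1-21-1 and Ighv5-1, with a second-highest count of 11, 12 and 16, and just outside were Ighv1-32, Ighv8-9 and Ighv1-73, with 8 each. Ighv1-1 was the 1 segment that did not pass the filter of the test. Of the 64 rows left out, 31 had 0 counts in all libraries. By sequence likeness, of 35 tested segments with 90% or more of their 50-base stretches their own, 13 were lower in iGCB KO with a median of -1.80, and of the other 83, 49 were lower with a median of -1.97. Likeness was not separated from level in these counts.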

How the data were processed

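RNA-seq counts per gene symbol were deposited for 10 libraries. The authors made these counts with featureCounts on mm10, per the submitters' processing notes; for the aligner, annotation, versions and strandedness the sources used here give nothing. Between 22.6% and 45.3% of a library's nonzero member counts were odd, so a count may not be 1 independent fragment and no counting interval is given. This odd share was 44.3% to 45.3% in iGCB WT, 26.1% to 31.5% in iGCB KO and 22.6% to 33.6% in naive libraries. It thus differed between iGCB WT and iGCB KO without overlap, and its bearing on the Ighv difference was not tested. Libraries held 33400672 to 63576147 counts.

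The 55492 rows were filtered with filterByExpr (minimum count 10), which kept 21010, scaled by TMM and fitted over 4 groups in edgeR 4.0.16 (R 4.3.3) with 6 residual degrees of freedom. Tests were two-sided quasi-likelihood F tests with Benjamini-Hochberg adjustment at 0.05. SE is the absolute log2 fold change over the square root of F. DESeq2 1.42.0, other scalings, no filter, single-stage fits, a replicate block, a sex term and leaving out each library were alternatives. The pipeline was tested on simulated data. Shares, family sums, entropies and list sums are descriptions. Levels are CPM on the TMM-scaled total.

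The members and lists were chosen with earlier results of these data known. Named segments were the 5 most abundant per group, up to 6 higher and 6 lower calls per comparison by fold change among segments with separated groups and a mean log2 CPM of at least 0, the most abundant of each family, 3 on either side of the count rule, and up to 4 called members of each list. Positions and sequences came from GENCODE M21 on mm10, using a segment's longest transcript.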

Additional observations from a re-analysis of the deposited data

Results flagged for a closer look

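The V2 family moved in opposite directions in KO against WT at the 2 stages. Its summed level was 110 and 48.1 CPM in naive WT against 225 and 134 CPM in naive KO, a log2 ratio of 1.18, and 72.0 to 98.5 CPM in iGCB WT against 27.0 to 34.0 CPM in iGCB KO, a log2 ratio of -1.44. All libraries followed these directions, and the difference of -2.62 was not tested. The change of side is not particular to V2. Mean sums gave log2 ratios of 1.01 and -1.32 for V3, 0.45 and -1.94 for V10, and 0.42 and -1.84 for V14, with overlapping naive libraries. Others, such as V11, were lower at both stages. As a share of Ighv counts, V2 was higher in KO at both stages, with log2 ratios of 0.94 and 0.43.

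Ighv counts per 100 heavy chain constant gene counts were also higher in both naive KO libraries and lower in all 3 iGCB KO libraries than in WT, with log2 ratios of 0.27 and -1.15. This difference of -1.42 was not tested, and the constant gene counts differed in make-up between the groups, with Ighe as the largest part in iGCB WT.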

How the results depend on the processing

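Groups of 2 and 3 libraries limit these results. The direction of the Ighv decrease in iGCB KO held under every scaling of all counts, while calls varied with the libraries left out. Leaving out each library gave 8 to 75 segments lower in iGCB KO against WT, 68 to 91 lower in iGCB against naive KO, 0 to 23 higher and 2 to 18 lower in iGCB against naive WT, 0 to 1 in either direction in naive KO against WT, and 0 to 29 lower for the difference of KO effects.

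The labels give no meaning to replicate numbers. In iGCB cells the deviations of same-number libraries from their group means correlated at 0.50, -0.15 and 0.01, so only number 1 moved together. In naive cells the correlation was 0.60. That is 1 value, since the 2 libraries of a group deviate in mirror image. Number 1 is female and number 2 male there in both genotypes, so in naive cells the block is also a sex block. Pairing entered as an alternative. With the replicate block, 78 segments were lower in iGCB KO, 1 was higher in naive KO (Ighv2-2), 2 were higher and 11 lower in iGCB against naive WT, 73 lower in iGCB against naive KO, and 28 lower for the difference of KO effects. A sex term and DESeq2 gave 1 higher in naive KO, and no filter gave 7 higher and 2 lower. For the difference of KO effects, no filter gave 60 lower and DESeq2 57. In iGCB against naive WT, 12 were higher with library size alone and 14 with no filter.

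Scaling by summed Ighv counts removes a shared change by construction: 4 higher and 0 lower in iGCB KO against WT, 3 and 3 in iGCB against naive WT, 7 and 5 in iGCB against naive KO. This scaling also shifts all genes, over which p-values are adjusted, so these counts have no like background. Under it these log2 fold changes turned positive in iGCB KO against WT: Ighv1-18 0.36, Ighv1-5 0.24, Ighv5-9-1 0.01, Ighv7-1 0.20, Ighv10-1 0.03, Ighv13-2 0.10 and Ighv14-2 0.002. In iGCB against naive KO they were Ighv1-26 0.29, Ighv9-3 1.198, Ighv1-9 0.54, Ighv8-8 0.79, Ighv5-4 1.51, Ighv1-18 0.70, Ighv15-2 0.17, Ighv1-71 0.029, Ighv1-5 0.96, Ighv14-1 0.45, Ighv5-9-1 1.02, Ighv5-17 0.42, Ighv13-2 0.50 and Ighv14-2 0.15. Of 1183 values of named segments under alternatives, 962 kept direction and side of the threshold, 189 lost the call, 11 gained it and 21 reversed.

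The ratio of Ighv shares, iGCB to naive WT, was 1.01, 0.977 with TMM-scaled size, and 0.777 to 1.46 when single libraries were left out; the ratio was 1.01 to 1.90 for naive KO to WT, 0.242 to 0.308 for iGCB KO to WT, and 0.177 to 0.250 for iGCB to naive KO. Without each library's top segment, the effective number was 60.9 in naive WT, 57.7 in naive KO, 64.7 in iGCB WT and 63.1 in iGCB KO. Leaving out libraries gave 45.3 to 56.8 in naive KO, 58.2 to 58.9 in naive WT, 63.4 to 63.7 in iGCB WT and 60.8 to 61.4 in iGCB KO. That setting also gave log2 family share ratios of -0.0862 (V1) and -1.06 (V3) in naive and -0.03 (V1) and -1.25 (V3) in iGCB cells, since the top segment is Ighv3-6 in every KO but not every WT library. Without Ighv3-6 in any library, chosen after seeing the data, V1 gave -0.0855 and -0.12. On the CPM scale the ratios were 0.0886 (V1), 1.18 (V2) and 0.31 (V5) in naive, and -2.05 (V1), -1.44 (V2), -1.32 (V3), -1.55 (V5) and -2.81 (V11) in iGCB cells. Leaving out libraries gave, in naive cells, -0.22 to -0.12 (V1), 0.84 to 1.04 (V2), 0.37 to 0.97 (V3), -0.04 to 0.17 (V5) and -2.15 to -0.87 (V11), and in iGCB cells -0.16 to -0.15, 0.36 to 0.49, 0.55 to 0.62, 0.31 to 0.38 and -1.24 to -0.76.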
